A study of Mus musculus with 9 samples.

Results

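The transcript levels of 32 mouse genes of glycolysis and of the response to low oxygen were followed in colon organoids, small bodies of gut epithelium grown in culture. The members were fixed by name, with earlier results of these data known, and their array probes were found through the RefSeq accession of each probe. They are 15 glycolytic enzymes (the enzymes of the pathway and Pfkfb3, which regulates it), 2 glucose transporters and 15 hypoxia genes, out of 20660 genes named on the array. Of these 32, 31 were bright enough to be tested, among 14034 tested genes in all. Slc2a3, a high-affinity glucose transporter, has 1 probe, which never stood well above background and gives no level. The members have 52 probes, of which 51 were well above background on all 9 arrays, and the filter on dim probes took out no member other than Slc2a3.

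The arrays fall into 3 groups of 3: organoids at 0 weeks, labelled untreated, and organoids kept with inflammatory reagents over 12 weeks or over 60 weeks. The labels give no strain, genotype, age or name of a reagent, and leave it unsaid if replicates were grown apart or taken from different animals, so p-values measure only the spread between these samples. No untreated culture of 12 or 60 weeks was analysed here, so that treatment and time in culture cannot be told apart. RNA was labelled with Cy3 and hybridised to single-colour Agilent arrays. A level is the log2 intensity minus that of the array's 75th percentile, so that 0 is a probe as bright as that percentile. Changes are differences of group mean levels on the log2 scale, with 3 arrays per group. Their SE is limma's, from a spread per gene that all 9 arrays share and that is drawn toward the spread of all genes. A gene thus has the same SE in the 3 comparisons, and a wide group widens it in all of them. In bulk RNA, fewer cells of a type and less RNA per cell cannot be told apart.

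Glycolysis splits glucose into pyruvate in the cytosol. Hexokinases trap the sugar, phosphofructokinase sets the pace, and pyruvate kinase closes the pathway, after which pyruvate is burned in mitochondria or turned into lactate. When oxygen is short, prolyl hydroxylases stop marking the α subunits of hypoxia-inducible factor (HIF) for breakdown by the VHL complex. The stabilised subunit pairs with ARNT, binds short DNA elements with the core RCGTG (R is A or G), and raises glycolytic enzymes, the glucose transporter Slc2a1, the kinase Pdk1 that keeps pyruvate out of the mitochondria, and its own hydroxylases. The colon surface lies next to an oxygen-poor lumen, and HIF is known there for its part in the epithelial barrier. HIF is controlled mostly through the protein, which arrays do not measure.

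The HIF core was searched as ACGTG and GCGTG, on both strands, in the window that reaches from 250 bases before a transcript's start to 50 after it, with overlapping matches counted apart. RefSeq windows (build GRCm38.p6) were found for 29 of the 32 members, with 44 windows in all; Slc2a3, Bnip3l and Ndrg1 had none. At least 1 match stood in a window of 27 of these 29 genes (93.1%), against 46.7% of all 27025 genes with a window. Of the windows, 34 of 44 (77.3%) held a match, against 43.8% of all 32851. Members' windows were also richer in the dinucleotide that both cores contain, with a median of 20.5 CG steps, against 7.0 in all windows. A match is a description of the letters and not a site of binding.

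The promoters of 8 genes are printed here for the patterns found here, from genes with 1 window each, 5′ to 3′ on the gene's strand, with matches to either core on either strand in capitals. Those of Pgk1, Bnip3, P4ha1 and Car9 belong to genes that were lower at 12 weeks and higher again at 60 weeks. That of Ankrd37 belongs to a gene lower at both times, and those of Hk2, Adm and Hif1a to genes higher at both times. Matches stood in the promoters of genes of all 3 patterns: 13 of 15 genes lower at 12 weeks held one, and 4 of 4 higher at 12 weeks. Gpi1 and Tpi1, with 1 window each, were also lower at 12 weeks and higher again at 60 weeks. They held no match and are not printed.
Pgk1 (chrX:106186850-106187149, plus strand): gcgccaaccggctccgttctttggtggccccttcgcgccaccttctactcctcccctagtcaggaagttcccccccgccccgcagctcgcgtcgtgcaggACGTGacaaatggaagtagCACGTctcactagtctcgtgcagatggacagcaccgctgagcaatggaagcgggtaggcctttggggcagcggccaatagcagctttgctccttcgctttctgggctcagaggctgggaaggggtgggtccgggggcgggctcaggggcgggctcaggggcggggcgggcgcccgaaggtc
Bnip3 (chr7:138909457-138909756, minus strand): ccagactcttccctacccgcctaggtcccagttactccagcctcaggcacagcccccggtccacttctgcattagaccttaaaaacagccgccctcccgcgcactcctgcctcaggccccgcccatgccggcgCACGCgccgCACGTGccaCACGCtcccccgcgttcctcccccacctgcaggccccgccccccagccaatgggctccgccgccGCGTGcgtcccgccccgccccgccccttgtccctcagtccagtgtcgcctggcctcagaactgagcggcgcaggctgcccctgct
P4ha1 (chr10:59323046-59323345, plus strand): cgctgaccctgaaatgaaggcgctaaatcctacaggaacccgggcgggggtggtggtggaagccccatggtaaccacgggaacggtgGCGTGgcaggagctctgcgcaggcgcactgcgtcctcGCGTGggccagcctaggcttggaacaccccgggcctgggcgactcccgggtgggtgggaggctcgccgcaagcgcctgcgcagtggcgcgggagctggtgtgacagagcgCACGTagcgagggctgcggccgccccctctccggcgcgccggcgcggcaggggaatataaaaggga
Car9 (chr4:43506776-43507075, plus strand): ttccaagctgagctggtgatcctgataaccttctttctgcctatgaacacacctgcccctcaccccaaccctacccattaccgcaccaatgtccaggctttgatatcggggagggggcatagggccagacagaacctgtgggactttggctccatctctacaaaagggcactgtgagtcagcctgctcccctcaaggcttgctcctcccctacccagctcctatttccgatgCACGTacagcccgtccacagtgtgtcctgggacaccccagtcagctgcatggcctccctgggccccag
Ankrd37 (chr8:45999801-46000100, minus strand): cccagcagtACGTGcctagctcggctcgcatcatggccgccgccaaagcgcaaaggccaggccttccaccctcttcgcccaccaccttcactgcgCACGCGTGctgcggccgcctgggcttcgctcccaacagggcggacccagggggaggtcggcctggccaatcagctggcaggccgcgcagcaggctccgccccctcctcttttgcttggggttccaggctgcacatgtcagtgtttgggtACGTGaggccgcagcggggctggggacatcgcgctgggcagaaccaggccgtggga
Hk2 (chr6:82774405-82774704, minus strand): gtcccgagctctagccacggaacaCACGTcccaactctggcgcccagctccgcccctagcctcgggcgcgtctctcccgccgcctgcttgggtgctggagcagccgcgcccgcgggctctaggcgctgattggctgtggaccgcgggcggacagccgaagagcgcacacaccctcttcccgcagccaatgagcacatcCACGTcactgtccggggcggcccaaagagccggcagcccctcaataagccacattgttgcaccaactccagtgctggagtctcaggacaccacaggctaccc
Adm (chr7:110627407-110627706, plus strand): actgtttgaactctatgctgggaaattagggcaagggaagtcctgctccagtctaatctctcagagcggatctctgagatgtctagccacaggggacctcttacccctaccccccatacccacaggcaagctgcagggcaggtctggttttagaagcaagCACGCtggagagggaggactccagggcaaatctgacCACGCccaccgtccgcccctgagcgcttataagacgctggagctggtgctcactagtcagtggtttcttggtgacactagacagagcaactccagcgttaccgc
Hif1a (chr12:73907617-73907916, plus strand): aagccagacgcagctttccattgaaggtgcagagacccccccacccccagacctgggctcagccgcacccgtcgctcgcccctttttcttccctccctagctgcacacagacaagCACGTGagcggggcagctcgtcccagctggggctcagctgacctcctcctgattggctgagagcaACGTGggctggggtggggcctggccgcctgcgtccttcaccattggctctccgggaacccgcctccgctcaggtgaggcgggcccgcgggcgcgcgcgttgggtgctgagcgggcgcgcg

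Some arrays stood apart for these genes. Replicate 2 of 12 weeks stood apart from the others of its group over all genes (correlations across genes of 0.977 to 0.992 among the 12-week arrays, against 0.994 to 0.996 at 0 weeks and 0.990 to 0.994 at 60 weeks). In it, 25 of 31 members lay above both other 12-week arrays, against 45.5% of all genes, and in replicate 1 of 12 weeks 28 of 31 lay below both, against 29.5% of all genes. Replicate 2 of 60 weeks lay above both other 60-week arrays for 31 of 31 members, against 34.7% of all genes. The spread within a group was therefore shared by the members, which are not independent of each other. Results are given without these arrays where that changes a call.

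Per array, 49.2% to 52.7% of probes exceeded background clearly. All 14 colon epithelial markers were above background on all 9 arrays, and their summed linear level was 2260 to 2710 at 0 weeks, 2420 to 2560 at 12 weeks and 2390 to 2680 at 60 weeks. Of 10 markers of fibroblasts and smooth muscle, 3 were tested, with sums of 0.226 to 0.317 at 0 weeks, 0.151 to 0.202 at 12 weeks and 0.228 to 0.268 at 60 weeks. Dcn, Lum, Pdgfra, Pdgfrb, Des and Myh11 were above background on 0 arrays, and Col1a1 was above it on no 12-week array. Of 10 immune markers, 8 were on the array and 4 tested, with sums of 16.6 to 23.3 at 0 weeks, 24.3 to 47.9 at 12 weeks and 27.3 to 34.3 at 60 weeks. The leukocyte marker Ptprc was above background on 0 arrays. Of 5 vessel markers 3 were tested, with sums of 8.61 to 10.9, 6.89 to 8.97 and 8.71 to 11.5 at 0, 12 and 60 weeks; Cdh5 and Tek were above background on 0 arrays. Of 5 nerve and glia markers 4 were tested, with sums of 1.03 to 1.09, 0.736 to 0.889 and 1.30 to 1.63; S100b was above background on 0 arrays. The part of these cells in the results was not tested.

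After 12 weeks of treatment most of the glycolytic pathway stood lower than at 0 weeks, while a hexokinase and the regulatory enzyme Pfkfb3 stood higher. Of the 15 glycolytic enzymes, 8 fell and 2 rose (limma, adjusted p under 0.05 over all tested genes), with a median log2 change of -0.61. Of all tested genes, 22.7% were called lower and 19.1% higher (41.8% in either direction), with a median change of -0.06. The arrays of 12 weeks all lay below those of 0 weeks in 9 of the 15 and all above in 2, against 29.7% and 24.9% of all genes. Hypoxia genes split the same way, with 8 lower, 2 higher and 5 not called of 15, and a median of -0.46. Without replicate 2 of 12 weeks the counts were 10 lower and 2 higher for glycolytic enzymes, and 7 lower and 2 higher for hypoxia genes with a median of -0.70. Of all 14034 tested genes, that fit called 4068 lower and 3337 higher, against 3182 and 2678 with every array kept.

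At 60 weeks, 11 of the 16 members that had fallen stood higher than at 12 weeks (68.8%), as did 48.9% of all 3182 genes that had fallen. Against 12 weeks, 10 of 15 glycolytic enzymes were higher and 0 lower (median 0.65), and so were 6 of 15 hypoxia genes, with 0 lower (median 0.40). Of all tested genes 20.7% were called higher and 17.6% lower in this comparison (38.3% in either direction). The hypoxia median moved with single arrays: it was 0.75 without replicate 2 of 12 weeks, 0.27 without replicate 1 of 12 weeks and 0.23 without replicate 2 of 60 weeks. Over the mean of a gene's probes it was 0.64. Against 0 weeks, 3 glycolytic enzymes were higher and 0 lower (median 0.11), and 4 hypoxia genes were higher and 3 lower (median 0.07), where 16.7% of all genes were called higher and 16.1% lower (32.8% in either direction). Without replicate 2 of 60 weeks these medians were -0.03 and -0.08, and without replicate 3 of 60 weeks 0.24 and 0.19. At an unadjusted p under 0.05, limma also gave 0 lower glycolytic enzymes in either comparison and 0 lower hypoxia genes at 60 against 12 weeks. All 3 arrays of 60 weeks lay above all 3 of 12 weeks for 19 of 31 members (25.3% of all genes) and below for 0 (21.8%). The 12-week arrays serve in 2 of these comparisons, so a low value there moves both.

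**Figure D1:**
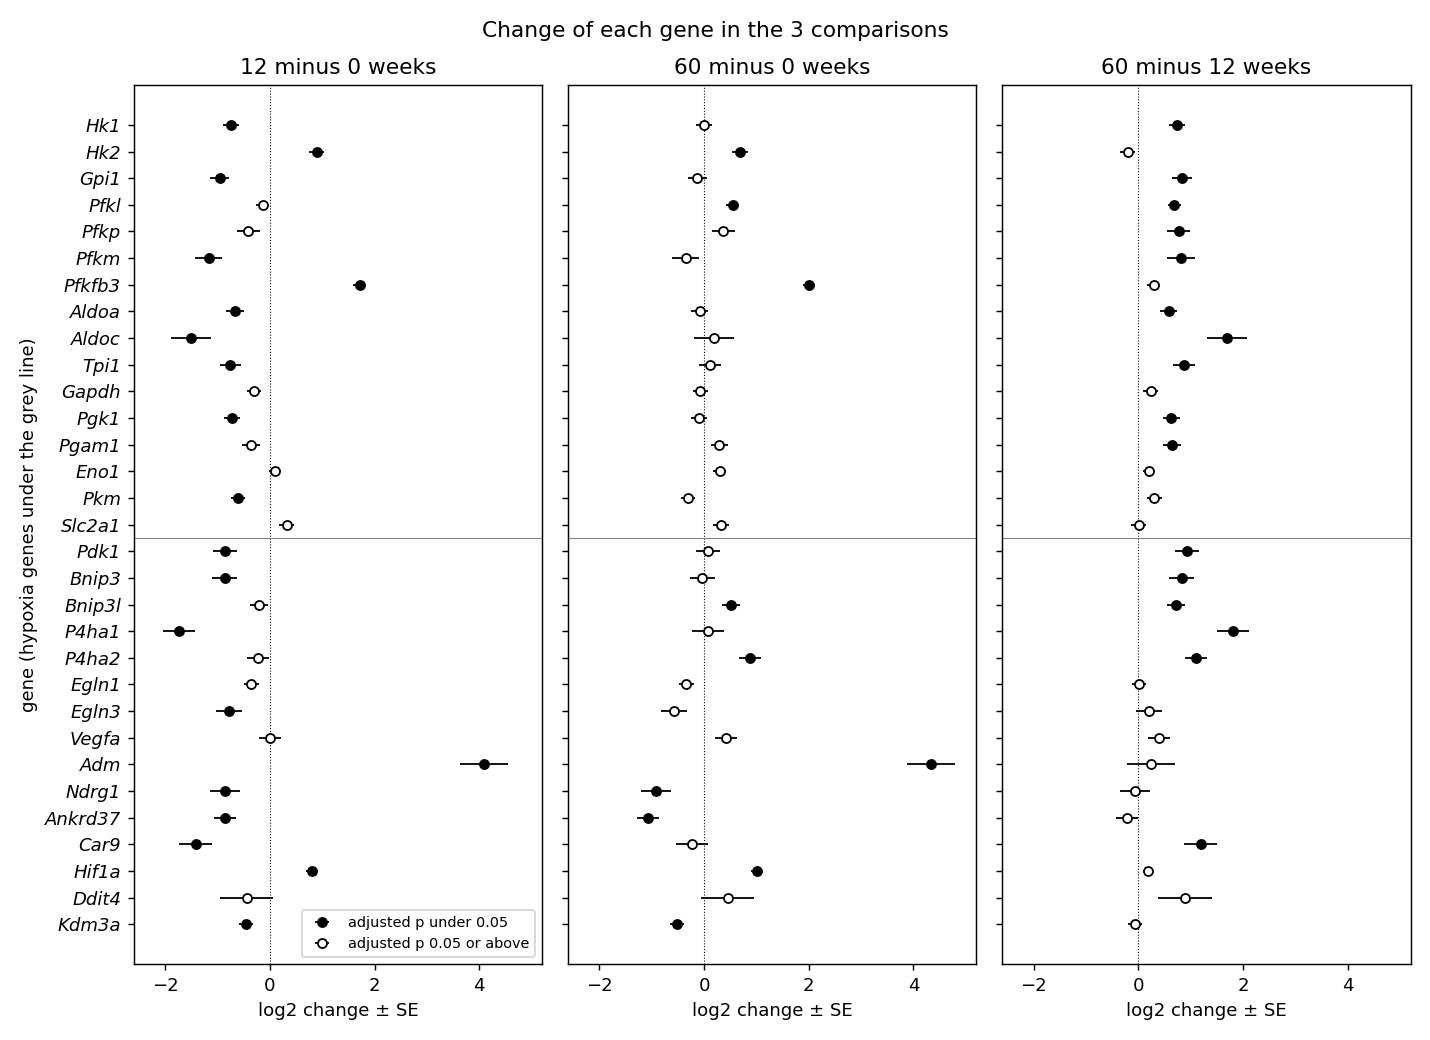
Log2 change ± SE (horizontal axis) of each tested member in the 3 comparisons, with glycolytic enzymes and Slc2a1 above the grey line and hypoxia genes below it; filled circles passed limma's adjusted p of 0.05. Filled circles lie mostly left of 0 in the first panel (16 lower, 4 higher), on both sides in the second (7 higher, 3 lower) and right of 0 in the last (16 higher, 0 lower).

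The change varied with brightness over all genes. Among the 168 tested genes with a mean level of at least 8, 39.9% were lower and 1.19% higher at 12 weeks against 0 weeks, with a median of -0.30, and 43.5% were higher at 60 against 12 weeks, with a median of 0.33. The 7 glycolytic enzymes in this bright class had medians of -0.61 and 0.58 in these comparisons. Among the 518 genes with levels between 6 and 8 the medians were -0.19 and 0.20, against -0.76 and 0.87 for 3 glycolytic enzymes and -0.86 and 0.89 for 3 hypoxia genes. Quantile normalisation, which forces the arrays to share 1 distribution, brought the glycolytic medians to -0.29 and 0.30, with 6 lower and 3 higher at 12 weeks and 7 higher at 60 against 12 weeks. Of all 14034 tested genes, 2984 were lower and 3016 higher at 12 weeks under this normalisation, and 2603 higher at 60 against 12 weeks. Hypoxia genes had medians of -0.41 and 0.28 under it. The part of brightness in the members' changes was not tested further.

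**Figure D2:**
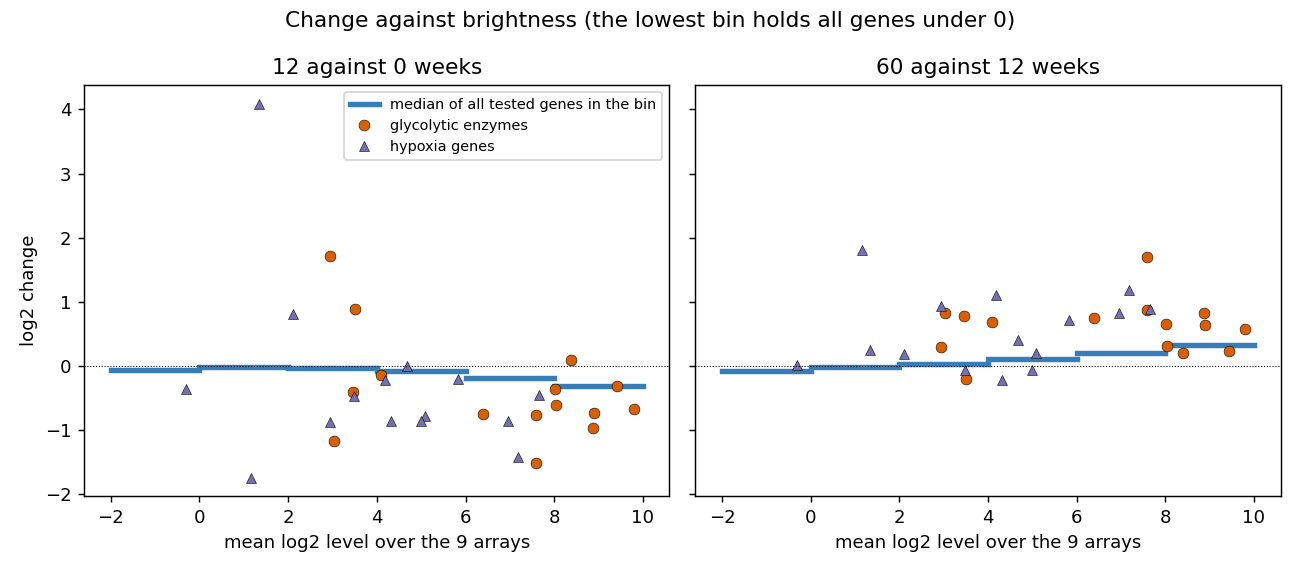
Log2 change of each glycolytic enzyme (circles) and hypoxia gene (triangles) against its mean log2 level over the 9 arrays, for 12 against 0 weeks and 60 against 12 weeks; blue steps are the median of all tested genes in each class of level. The blue steps reach -0.30 on the left and 0.33 on the right in the brightest class, and most bright members lie farther from 0 than the steps.

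Glucose enters through Slc2a1, the basal transporter and a known HIF target. It was at 6.24, 6.44 and 6.32 in the 12-week arrays, against 5.96, 6.18 and 5.89 in the 0-week arrays. The groups did not overlap, but the change of 0.32 missed the threshold (adjusted p = 0.115). It passed under quantile normalisation (0.48, adjusted p = 0.0203) and with replicate number fitted as a block (0.32, adjusted p = 0.0479). Genes of its chromosome 4 shifted by a median of 0.26. At 60 weeks Slc2a1 was at 6.23, 6.64 and 6.15, which overlapped the 0-week arrays (0.33, adjusted p = 0.127). Slc2a1 thus did not share the fall of the enzymes that follow it.

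The hexokinases, which phosphorylate glucose, moved in opposite directions. Hk1, the isoform of most tissues, was at 6.67, 6.55 and 6.68 at week 0, 5.67, 6.25 and 5.74 at week 12 and 6.60, 6.70 and 6.59 at week 60. All 12-week arrays lay below all others, and Hk1 fell by 0.74 ± 0.15 at 12 weeks (1.67-fold lower, adjusted p = 0.00554). It was as much higher at 60 than at 12 weeks (0.74 ± 0.15, adjusted p = 0.00666). Genes of chromosome 10, where Hk1 lies, were higher at 60 than at 12 weeks by a median of 0.34, and relative to that median the call ended (0.46, adjusted p = 0.0757).

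Hk2, the inducible isoform, was at 2.97, 3.10 and 2.84 at week 0, 3.93, 3.63 and 4.02 at week 12 and 3.55, 3.89 and 3.53 at week 60. The treated arrays lay above the untreated ones at both times. The rise was 0.89 ± 0.15 at 12 weeks (1.86-fold, adjusted p = 0.00202) and 0.69 ± 0.15 at 60 weeks (1.61-fold, adjusted p = 0.00840). With slide row fitted as a block, the 60-week call ended (0.86, adjusted p = 0.121).

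Gpi1, which turns glucose 6-phosphate into fructose 6-phosphate, was at 7.97, 8.68 and 8.20 at 12 weeks, against 9.05, 9.35 and 9.33 at 0 weeks. These did not overlap, and Gpi1 fell by 0.96 ± 0.19 (adjusted p = 0.00445). At 60 weeks it was at 9.09, 9.28 and 8.98, above every 12-week array (0.83 ± 0.19, adjusted p = 0.00976). Its 3 probes all stood lower at 12 weeks, by -1.40 to -0.96.

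Phosphofructokinase catalyses the committed step, and its 3 subunit genes differed. Pfkm, the muscle-type subunit, was at 3.54, 3.51 and 3.55 at week 0, 1.94, 3.06 and 2.09 at week 12 and 3.10, 3.34 and 3.11 at week 60. It fell by 1.17 ± 0.26 at 12 weeks (2.25-fold lower, adjusted p = 0.00832), with replicate 2 of 12 weeks nearest to the untreated arrays. Its higher level at 60 than at 12 weeks (0.82 ± 0.26, adjusted p = 0.0384) was lost in 13 of 21 alternatives, among them each of the leave-one-out fits except that without replicate 2 of 12 weeks (adjusted p 0.0586 to 0.122). All its 60-week arrays also lay below the 0-week arrays (-0.35, adjusted p = 0.337), a change called without replicate 2 of 12 weeks (adjusted p = 0.0195).

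Pfkl, the liver-type subunit, was at 3.94, 3.92 and 3.98 at week 0, 3.59, 3.95 and 3.89 at week 12 and 4.48, 4.65 and 4.36 at week 60. Only the 60-week arrays stood apart, above all 6 others. The change was 0.55 ± 0.12 against 0 weeks (adjusted p = 0.0104) and 0.68 ± 0.12 against 12 weeks (adjusted p = 0.00375). Genes of chromosome 10 shared part of this (medians 0.28 and 0.34). Relative to those medians neither call held (0.34, adjusted p = 0.130, and 0.40, adjusted p = 0.0651), and with slide row fitted as a block the call against 0 weeks ended (0.28, adjusted p = 0.322).

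Pfkp, the platelet-type subunit, was at 3.85, 4.24 and 3.41 at 60 weeks, against 2.80, 3.05 and 3.33 at 12 weeks. It was higher at 60 than at 12 weeks by 0.77 ± 0.22 (adjusted p = 0.0259). The call was lost without replicate 1 of 12 weeks (adjusted p = 0.0851), without replicate 1 of 60 weeks (0.0714) or without replicate 2 of 60 weeks (0.0741). Its level at 12 weeks was not called against 3.30, 3.62 and 3.50 at 0 weeks (-0.41, adjusted p = 0.171). Its other, dimmer probe changed by -1.14 there (adjusted p over probes = 0.000706) and by 1.46 at 60 against 12 weeks (0.000299). Pfkp was called lower with the mean of its probes (-0.77, adjusted p = 0.00704).

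Pfkfb3 makes fructose 2,6-bisphosphate, the activator of phosphofructokinase. It was at 1.80, 1.78 and 1.56 at week 0, 3.37, 3.44 and 3.46 at week 12 and 3.63, 3.94 and 3.59 at week 60. The 12-week arrays were close together, and every treated array lay at least 1 log2 unit above every untreated one. Pfkfb3 rose by 1.71 ± 0.12 at 12 weeks (3.28-fold, adjusted p = 2.17e-05) and by 2.01 ± 0.12 at 60 weeks (4.02-fold, adjusted p = 1.04e-05). Its other probe gave 1.33 and 1.90.

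The aldolases split fructose 1,6-bisphosphate into 3-carbon sugars. Aldoc was at 7.86, 8.12 and 8.13 at week 0, 5.83, 7.53 and 6.23 at week 12 and 8.19, 8.54 and 7.94 at week 60. Replicates 1 and 3 of 12 weeks were far below the untreated arrays and replicate 2 only a little. The fall was 1.51 on the log2 scale, with an SE of 0.39 (2.84-fold lower, adjusted p = 0.0150, and 0.0517 without replicate 3 of 12 weeks). Aldoc was higher at 60 than at 12 weeks by 1.70 ± 0.39 (3.24-fold, adjusted p = 0.0104).

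Aldoa, the main aldolase of muscle and most cells, was at 9.11, 9.71 and 9.36 at 12 weeks, against 9.87, 10.18 and 10.13 at 0 weeks, and fell by 0.67 ± 0.16 (adjusted p = 0.0124). At 60 weeks it was at 9.87, 10.11 and 9.94, above the 12-week arrays by 0.58 ± 0.16 (adjusted p = 0.0244). The higher level at 60 than at 12 weeks was lost in 8 of 21 alternatives. These include the fits without replicate 1 of 12 weeks (adjusted p = 0.0728), replicate 3 of 12 weeks (0.0713), replicate 2 of 60 weeks (0.0780) and replicate 3 of 60 weeks (0.0505).

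Tpi1, which interconverts the 3-carbon sugars, was at 6.71, 7.43 and 6.99 at 12 weeks, against 7.67, 7.82 and 7.92 at 0 weeks. The groups did not overlap, and Tpi1 fell by 0.76 ± 0.20 (adjusted p = 0.0176). Leaving out replicate 2 or 3 of 0 weeks, or replicate 1 or 3 of 12 weeks, brought that p to 0.0534, 0.0609, 0.0552 and 0.0526. At 60 weeks Tpi1 was at 7.89, 8.20 and 7.66, higher than at 12 weeks by 0.87 ± 0.20 (adjusted p = 0.0111).

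Gapdh, often used as an expression standard, was at 9.06, 9.42 and 9.26 at 12 weeks, against 9.42, 9.73 and 9.51 at 0 weeks. Its brightest probe, used here by rule, was not called (-0.31, adjusted p = 0.107). Its 6 other probes changed by -0.95 to -0.71, with adjusted p over probes of 0.00572 to 0.0208, and without replicate 2 of 12 weeks the brightest probe was called too (-0.39, adjusted p = 0.0460). With the mean of its probes Gapdh was called lower at 12 weeks (-0.76, adjusted p = 0.00964) and higher at 60 against 12 weeks (0.63, adjusted p = 0.0230). Over the alternatives, its change ran from -0.76 to -0.01 at 12 weeks and from -0.09 to 0.63 at 60 against 12 weeks.

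Pgk1, which makes the pathway's earliest ATP, was at 8.98, 9.31 and 9.26 at week 0, 8.19, 8.65 and 8.52 at week 12 and 8.96, 9.29 and 9.01 at week 60. The 12-week arrays lay below all others. Pgk1 fell by 0.73 ± 0.16 at 12 weeks (1.66-fold lower, adjusted p = 0.00675) and was higher at 60 than at 12 weeks by 0.63 ± 0.16 (adjusted p = 0.0143). The later call ended under quantile normalisation (0.25, adjusted p = 0.0565) and with slide row fitted as a block (0.54, adjusted p = 0.0637).

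Pgam1, the phosphoglycerate mutase, was at 8.26, 8.59 and 8.16 at 60 weeks, against 7.47, 7.95 and 7.65 at 12 weeks, a difference of 0.65 ± 0.17 (adjusted p = 0.0170). Chromosome 19, which carries it, shifted by a median of 0.44, and relative to that median the call ended (0.29, adjusted p = 0.241). It also ended with slide row fitted as a block (0.63, adjusted p = 0.0528), and without replicate 1 of 12 weeks (0.0571), replicate 3 of 12 weeks (0.0542) or replicate 2 of 60 weeks (0.0551). Against 7.86, 8.18 and 8.10 at 0 weeks, the 12-week level was not called (-0.36, adjusted p = 0.117) and was called lower without replicate 2 of 12 weeks (-0.49, adjusted p = 0.0344).

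Pkm, pyruvate kinase, was at 7.57, 7.82 and 7.79 at 12 weeks, against 8.18, 8.42 and 8.43 at 0 weeks. It fell by 0.61 ± 0.14 (adjusted p = 0.00793), a call that ended under quantile normalisation (-0.22, adjusted p = 0.113). At 60 weeks it was at 7.93, 8.27 and 7.91, not called against either group, though lower than at 0 weeks without replicate 2 of 60 weeks (-0.42, adjusted p = 0.0480). Eno1, the enolase, was called in no comparison, with levels of 8.14 to 8.67 over the 9 arrays. Under quantile normalisation Eno1 was higher at 12 weeks (0.50, adjusted p = 0.00161) and at 60 weeks (0.34, adjusted p = 0.0115) than at 0 weeks. Without replicate 2 of 12 weeks the 60-week change of 0.30 was called as well (adjusted p = 0.0401). Over the alternatives, the change of Eno1 ran from -0.25 to 0.50 at 12 weeks and from 0.01 to 0.34 at 60 weeks. Genes of its chromosome 4 shifted by medians of 0.26 and 0.21.

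**Figure D3:**
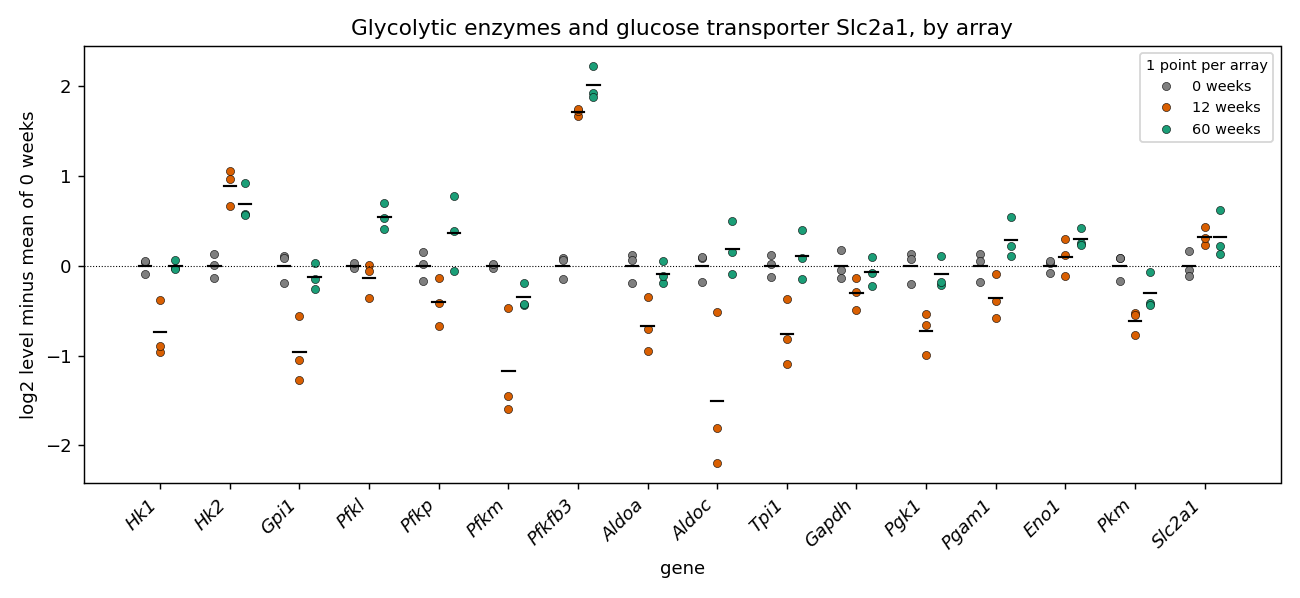
Log2 level of each glycolytic enzyme and Slc2a1 on each array, minus the gene's mean at 0 weeks; 1 point per array, with the group mean as a bar, in grey for 0, orange for 12 and green for 60 weeks. For 8 enzymes (Hk1, Gpi1, Pfkm, Aldoa, Aldoc, Tpi1, Pgk1 and Pkm) the orange points lie below both other groups, while Hk2 and Pfkfb3 stand above 0 at 12 and 60 weeks.

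Several of these enzymes have near-identical pseudogene copies in the mouse genome, among them Gapdh, Pgk1, Aldoa, Tpi1, Pgam1, Eno1 and Pkm. Which copies a probe reads was not tested, since probe sequences were not used here.

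Hif1a, the HIF-1 α subunit, rose at the transcript level. It was at 1.50, 1.44 and 1.58 at week 0, 2.45, 2.09 and 2.40 at week 12 and 2.49, 2.52 and 2.52 at week 60. All treated arrays lay above all untreated ones. The rise was 0.81 ± 0.11 at 12 weeks (1.75-fold, adjusted p = 0.000892) and 1.003 ± 0.11 at 60 weeks (2.004-fold, adjusted p = 0.000344), where chromosome 12 shifted by medians of 0.23 and 0.22.

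Egln1 and Egln3, prolyl hydroxylases that mark HIF for breakdown, were called higher in no comparison. Egln3, a HIF target itself, was at 4.20, 5.34 and 4.74 at 12 weeks, against 5.50, 5.58 and 5.55 at 0 weeks. It fell by 0.78 ± 0.25 (adjusted p = 0.0385), a call lost in 11 of 21 alternatives. Those include leaving out any 0-week array (adjusted p 0.0817 to 0.0987), replicate 1 (0.0895) or 3 (0.0892) of 12 weeks, or replicate 1 (0.0560) or 3 (0.0523) of 60 weeks. At 60 weeks Egln3 was at 4.85, 5.21 and 4.84, below every 0-week array without passing the test (-0.58, adjusted p = 0.119), and it passed without replicate 1 (0.0407) or 2 (0.0237) of 12 weeks.

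Egln1, the main oxygen sensor, was at -0.43, -0.42 and -0.43 at 12 weeks, against -0.07, -0.16 and 0.03 at 0 weeks. These groups did not overlap, yet the change missed the threshold (-0.35, adjusted p = 0.0714). It passed without replicate 2 (0.0459) or replicate 3 (0.0216) of 60 weeks. At 60 weeks Egln1 was at -0.35, -0.17 and -0.71 (-0.34 against 0 weeks, adjusted p = 0.0954; with replicate 2 of 60 weeks left out, 0.0389).

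P4ha1 and P4ha2 encode catalytic subunits of the prolyl hydroxylase that matures collagen. P4ha1 was at 1.57, 1.94 and 1.66 at week 0, -0.51, 0.72 and -0.25 at week 12 and 1.77, 2.11 and 1.51 at week 60. Its 12-week arrays lay well below all others. The fall at 12 weeks was 1.74 on the log2 scale, with an SE of 0.30 (3.33-fold lower, adjusted p = 0.00268). At 60 weeks P4ha1 was higher than at 12 weeks by 1.81 ± 0.30 (3.51-fold, adjusted p = 0.00280), where its chromosome 10 shifted by 0.34. Its 2 probes gave -1.88 and -1.74 at 12 weeks.

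P4ha2 was at 3.85, 4.12 and 3.91 at week 0, 3.45, 4.16 and 3.59 at week 12 and 4.85, 5.12 and 4.53 at week 60. Only the 60-week arrays stood apart, above all others. P4ha2 was higher at 60 weeks than at 0 weeks (0.88 ± 0.21, adjusted p = 0.0144) and than at 12 weeks (1.10 ± 0.21, adjusted p = 0.00510). The 0-week comparison lost its call without replicate 1 of 0 weeks (0.0511) and with slide row fitted as a block (0.60, adjusted p = 0.290).

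Car9, a surface carbonic anhydrase that helps to keep the cell's pH and a classical HIF target, was at 7.66, 7.72 and 7.82 at week 0, 5.72, 7.10 and 6.14 at week 12 and 7.56, 7.71 and 7.25 at week 60. It fell by 1.42 ± 0.31 at 12 weeks (2.67-fold lower, adjusted p = 0.00749), with replicate 2 again nearest to the untreated arrays. It was higher at 60 than at 12 weeks by 1.19 ± 0.31 (2.28-fold, adjusted p = 0.0179). That call was lost with slide row fitted as a block (1.02, adjusted p = 0.0518), and without replicate 3 of 12 weeks (0.0611), replicate 1 of 60 weeks (0.0546) or replicate 2 of 60 weeks (0.0607).

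Pdk1, which blocks pyruvate dehydrogenase, was at 3.11, 3.16 and 3.35 at week 0, 1.85, 2.78 and 2.39 at week 12 and 3.31, 3.49 and 3.03 at week 60. It fell by 0.86 ± 0.23 at 12 weeks (adjusted p = 0.0166), a call that ended when replicate 3 of 0 weeks was left out (0.0587). It was higher at 60 than at 12 weeks by 0.93 ± 0.23 (adjusted p = 0.0136). The 12-week arrays lay below those of both other groups.

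Bnip3 and Bnip3l encode related receptors for the removal of mitochondria. Bnip3 was at 7.06, 7.28 and 7.45 at week 0, 6.10, 6.81 and 6.30 at week 12 and 7.28, 7.60 and 6.83 at week 60. It fell by 0.86 ± 0.24 at 12 weeks (adjusted p = 0.0207) and was higher at 60 than at 12 weeks by 0.83 ± 0.24 (adjusted p = 0.0260). The 12-week arrays lay below both other groups, though narrowly below the lowest 60-week array. Its other probes changed by -0.78 and -0.64 at 12 against 0 weeks (adjusted p over probes of 0.0672 and 0.290). At 60 against 12 weeks they gave 0.80 and 0.72 (0.0673 and 0.257). With the mean of its probes both Bnip3 calls ended (adjusted p = 0.0819 and 0.0793). The fall was lost without replicate 2 (0.0597) or 3 (0.0722) of 0 weeks, or replicate 1 (0.0707) or 3 (0.0625) of 12 weeks. The later call was lost without replicate 1 (0.0855) or 3 (0.0795) of 12 weeks, or replicate 1 (0.0744) or 2 (0.0834) of 60 weeks.

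Bnip3l was at 5.51, 5.80 and 5.87 at week 0, 5.43, 5.69 and 5.43 at week 12 and 6.07, 6.57 and 6.07 at week 60. Its 60-week arrays lay above all others. The level was higher at 60 than at 12 weeks by 0.72 ± 0.17 (adjusted p = 0.0116). Its 4 probes gave 0.36 to 0.79 at 60 against 12 weeks and 0.05 to 0.52 at 60 against 0 weeks. At 60 against 12 weeks the probe with the lowest change missed the threshold (adjusted p over probes = 0.0965). At 60 against 0 weeks the adjusted p over probes was 0.0436, 0.0651 for the probe used here, 0.0994 and 0.834. Against 0 weeks the change of 0.51 ± 0.17 (adjusted p = 0.0487) was lost in 15 of 21 alternatives. These include leaving out any array except replicate 2 of 12 weeks (adjusted p 0.0519 to 0.152), and the fit relative to the median of chromosome 14 (0.37, adjusted p = 0.173).

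Adm had the largest change of any member at 12 and at 60 weeks against 0 weeks. Adm, which encodes the vessel-widening peptide adrenomedullin, was at -1.62, -1.47 and -1.27 at week 0, 1.50, 3.65 and 2.75 at week 12 and 2.92, 3.19 and 2.52 at week 60. Every treated array lay far above every untreated one, with the widest spread at 12 weeks. The rise was 4.09 ± 0.46 at 12 weeks (17.0-fold, adjusted p = 0.000295) and 4.33 ± 0.46 at 60 weeks (20.2-fold, adjusted p = 0.000264).

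Vegfa, the vessel growth factor, was not called in any comparison by the probe used. It was at 4.59, 4.70 and 4.34 at week 0, 4.25, 4.82 and 4.58 at week 12 and 4.98, 5.30 and 4.58 at week 60, and the groups overlapped. Its 2 probes disagreed at 12 against 0 weeks, with changes of 0.01 and -0.57, and at 60 against 12 weeks, with 0.40 and 1.15. The second, dimmer probe passed the test there (adjusted p over probes = 0.0396).

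Ankrd37, Ndrg1 and Kdm3a, HIF targets, were low at both times. Ankrd37, which encodes an ankyrin-repeat protein, was at 4.93, 4.997 and 4.98 at week 0, 3.60, 4.50 and 4.23 at week 12 and 3.83, 4.09 and 3.77 at week 60. It fell by 0.86 ± 0.21 at 12 weeks (adjusted p = 0.0128) and by 1.07 ± 0.21 at 60 weeks (adjusted p = 0.00612). Treated arrays lay below all untreated ones, and without replicate 1 of 12 weeks Ankrd37 was also lower at 60 than at 12 weeks (-0.47, adjusted p = 0.0402).

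Ndrg1, a stress-response gene of differentiated epithelium, was at 5.43, 5.66 and 5.70 at week 0, 4.75, 4.41 and 5.03 at week 12 and 4.60, 5.30 and 4.11 at week 60. It fell by 0.86 ± 0.29 at 12 weeks (adjusted p = 0.0413) and by 0.93 ± 0.29 at 60 weeks (adjusted p = 0.0387). Every treated array lay below every untreated one. The calls were lost in 12 and 11 of 21 alternatives, slide row as a block among them (adjusted p = 0.104 and 0.425). Leaving out any 0-week array ended both calls (adjusted p 0.0682 to 0.110 at 12 weeks and 0.0688 to 0.110 at 60 weeks). The 12-week call also ended without replicate 1 (0.0899) or 2 (0.0949) of 12 weeks or replicate 1 of 60 weeks (0.0610). The 60-week call also ended without replicate 1 of 12 weeks (0.0536), replicate 1 of 60 weeks (0.103) or replicate 3 of 60 weeks (0.0964).

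Kdm3a, a histone demethylase, was at 3.73, 4.03 and 3.66 at week 0, 3.27, 3.36 and 3.40 at week 12 and 3.13, 3.50 and 3.23 at week 60. It fell by 0.46 ± 0.14 at 12 weeks (adjusted p = 0.0253) and by 0.52 ± 0.14 at 60 weeks (adjusted p = 0.0193), and no treated array reached the untreated ones. The 12-week call was lost with slide row fitted as a block (-0.54, adjusted p = 0.0945) and without replicate 2 of 0 weeks (0.0906), replicate 1 of 12 weeks (0.0756) or replicate 3 of 12 weeks (0.0520). The 60-week call was lost with that block (-0.60, adjusted p = 0.216), relative to the chromosome median (-0.39, adjusted p = 0.0936), and without replicate 2 of 0 weeks (0.0695), replicate 1 of 60 weeks (0.0735) or replicate 3 of 60 weeks (0.0550).

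Ddit4, which restrains the growth kinase mTORC1, scattered widely. It was at 7.84, 7.81 and 7.30 at week 0, 6.62, 8.31 and 6.69 at week 12 and 7.64, 8.99 and 7.66 at week 60. Replicate 2 was highest in both treated groups, and no comparison was called. Without replicate 2 of 12 weeks, Ddit4 was higher at 60 than at 12 weeks (1.44, adjusted p = 0.0202), with a change of 0.89 in the full set (adjusted p = 0.202).

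**Figure D4:**
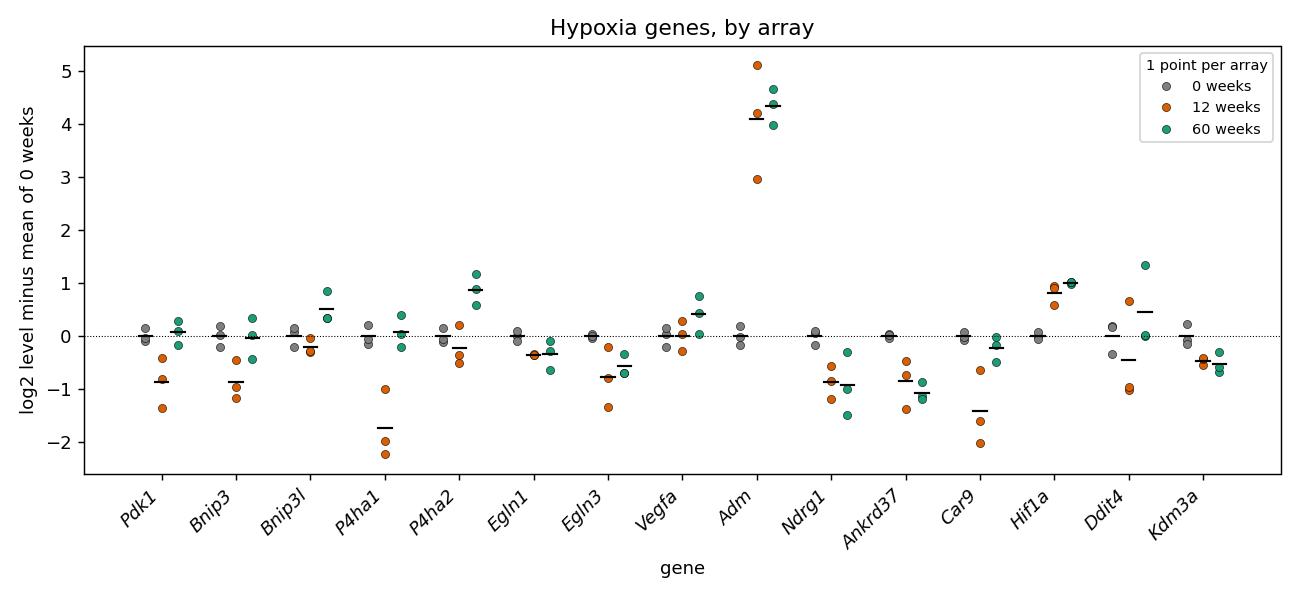
Log2 level of each hypoxia gene on each array, minus the gene's mean at 0 weeks; 1 point per array, with the group mean as a bar, in grey for 0, orange for 12 and green for 60 weeks. Adm stands 4.09 and 4.33 above 0 weeks, P4ha1 and Car9 dip at 12 weeks alone, and Ankrd37, Ndrg1 and Kdm3a lie below 0 at both times.

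The members thus fell into few patterns. A fall at 12 weeks with a higher level at 60 than at 12 weeks, and no call at 60 against 0 weeks, was shown by 7 glycolytic enzymes (Hk1, Gpi1, Pfkm, Aldoa, Aldoc, Tpi1 and Pgk1) and 4 hypoxia genes (Pdk1, Bnip3, P4ha1 and Car9). Hk2, Pfkfb3, Adm and Hif1a were higher at both times, and Ndrg1, Ankrd37 and Kdm3a lower at both. Pfkl, Bnip3l and P4ha2 were called higher at 60 weeks against each earlier time. Pkm and Egln3 were called only as lower at 12 against 0 weeks, and Pfkp and Pgam1 only as higher at 60 against 12 weeks. Gapdh, Eno1, Slc2a1, Egln1, Vegfa and Ddit4 were called in none.

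Slides hold their arrays in rows, and the groups were not spread evenly over them. Row 1 holds replicate 1 of 12 weeks and all 3 arrays of 0 weeks. There, 13 of 15 glycolytic enzymes (median -0.77) and 13 of 15 hypoxia genes (median -0.84) were lower at 12 weeks, against 53.1% of all genes (median -0.05); this 12-week array is the one in which most members were lowest. Row 2 holds 2 arrays of 60 weeks and 2 of 12 weeks, and there 14 of 15 glycolytic enzymes (median 0.63) and 11 of 15 hypoxia genes (median 0.44) were higher at 60 weeks, against 52% of all genes (median 0.02). The 60-week and 0-week arrays share no row and are linked across rows only through the 12-week arrays. With slide row fitted as a block, the medians at 60 against 0 weeks were -0.31 for glycolytic enzymes and -0.29 for hypoxia genes, with Pfkfb3, Adm and Hif1a still called higher and Ankrd37 lower. Replicate 3 of 60 weeks lies alone on a second slide.

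Other genes of these pathways were counted in lists that do not hold the members. Of 18 tested HIF subunits and regulators, 7 were lower and 0 higher at 12 against 0 weeks, 2 lower and 2 higher at 60 against 0 weeks, and 5 higher and 0 lower at 60 against 12 weeks. Over all genes the shares were 22.7% lower and 19.1% higher, 16.1% lower and 16.7% higher, and 20.7% higher and 17.6% lower in these comparisons. At an unadjusted p under 0.05 limma gave 0 higher at 12 against 0 weeks and 1 lower at 60 against 12 weeks. Epas1, the HIF-2 α subunit, was at 5.84, 5.75 and 5.82 at week 0, 4.34, 4.54 and 4.52 at week 12 and 5.48, 5.49 and 5.42 at week 60. Unlike Hif1a it fell, by 1.34 ± 0.09 at 12 weeks (2.52-fold lower, adjusted p = 1.72e-05), and its 3 groups did not overlap. It was higher at 60 than at 12 weeks by 0.998 ± 0.09 (adjusted p = 0.000122) and lower at 60 than at 0 weeks (-0.34 ± 0.09, adjusted p = 0.0210).

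The partner subunit Arnt (-0.52 ± 0.11) and Vhl (-0.47 ± 0.10), the recognition part of the complex that removes HIF, were also lower at 12 weeks. At 60 against 0 weeks, Cited2, which competes with HIF for a coactivator, was lower (-0.59 ± 0.12), and Os9, a lectin of the endoplasmic reticulum, was higher (0.36 ± 0.09). Os9 was also higher at 60 than at 12 weeks (0.73 ± 0.09). Both lie on chromosome 10, with medians of 0.28 and 0.34 in these comparisons. Hif3a, a further α subunit, did not exceed background on any 12-week array and stood at least 1.70-fold higher at 60 than at 12 weeks.

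Of 35 other tested HIF targets, 9 were higher and 7 lower at 12 weeks against 0 weeks (median 0.19), 5 and 5 at 60 against 0 weeks, and 11 and 8 at 60 against 12 weeks. At 12 weeks these counts lie near the shares over all genes (19.1% higher and 22.7% lower). Those shares were 16.7% and 16.1% at 60 against 0 weeks, and 20.7% and 17.6% at 60 against 12 weeks. Ak4, a mitochondrial adenylate kinase, was at -2.39, -2.48 and -2.27 at week 0, 2.43, 2.59 and 2.65 at week 12 and 2.10, 2.32 and 2.36 at week 60. It rose by 4.94 ± 0.11 at 12 weeks (30.7-fold, adjusted p = 6.29e-08; median of its chromosome 4, 0.26) and by 4.64 ± 0.11 at 60 weeks (25.0-fold, adjusted p = 8.34e-08). All treated arrays lay more than 4 log2 units above the untreated ones, a larger rise than that of any member.

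Nt5e, the ecto-enzyme that makes adenosine, was above background on no array of 0 or 60 weeks, at least 9.91-fold higher at 12 than at 0 weeks, and at least 10.1-fold lower at 60 than at 12 weeks. Rora, a nuclear receptor, was not above background at 60 weeks and was at least 3.45-fold lower than at 0 weeks and at least 6.54-fold lower than at 12 weeks. Trf, which carries iron, was at least 2.60-fold lower at 60 than at 12 weeks, and Gbe1, the glycogen branching enzyme, was lower at 60 than at 0 weeks (-2.33 ± 0.28).

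Of 26 other glycolytic and gluconeogenic enzymes, 6 were higher and 5 lower at 12 against 0 weeks, 3 and 2 at 60 against 0 weeks, and 5 and 8 at 60 against 12 weeks. Over all genes 19.1% were higher and 22.7% lower at 12 weeks, close to this list, and 16.7% and 16.1% at 60 against 0 weeks, above it. The shares at 60 against 12 weeks were 20.7% higher and 17.6% lower. Pklr, the liver-type pyruvate kinase, was higher at 12 weeks against 0 weeks (1.95 ± 0.16) and lower at 60 against 12 weeks (-2.37 ± 0.16), while Pkm was lower at 12 weeks. Galm, which interconverts the forms of glucose and galactose, followed Pklr (3.69 ± 0.43 and -3.40 ± 0.43). Eno3, the muscle enolase, was lower at 12 weeks (-1.36 ± 0.17) and at 60 weeks (-1.15 ± 0.17) than at 0 weeks.

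At 60 weeks Pgm1, which links glycogen to glycolysis, was higher than at 0 weeks (1.27 ± 0.19) and Pcx, pyruvate carboxylase, lower (-0.68 ± 0.10). Of 7 other sugar carriers, 4 were higher and 0 lower at 12 against 0 weeks, namely Slc2a4 (1.10 ± 0.26), Slc2a6 (1.02 ± 0.25), Slc5a10 (0.57 ± 0.15) and Slc5a9, where 19.1% of all genes were higher and 22.7% lower. At 60 against 0 weeks 2 were higher, Slc5a10 (0.80 ± 0.15) and Slc2a9 (0.96 ± 0.32), and 0 lower. At 60 against 12 weeks 1 was lower, Slc2a4 (-1.25 ± 0.26), and 0 higher. The counts of 0 were also 0 at an unadjusted p under 0.05 in limma. Of all genes, 16.7% were higher and 16.1% lower at 60 against 0 weeks, and 20.7% and 17.6% at 60 against 12 weeks.

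Of 11 genes for the entry of pyruvate into mitochondria, 4 were lower and 1 higher at 12 against 0 weeks, where 22.7% of all genes were lower and 19.1% higher. These include Pdha1 (-0.61 ± 0.09), the catalytic subunit of pyruvate dehydrogenase, its phosphatase Pdp1 (-0.53 ± 0.10) and the carrier subunit Mpc1 (-0.50 ± 0.11). At 60 against 0 weeks 3 were lower and 0 higher (1 higher at an unadjusted p under 0.05 in limma), namely Mpc2 (-0.49 ± 0.10), Pdha1 (-0.39 ± 0.09) and Pdhx (-0.65 ± 0.16). At 60 against 12 weeks 2 were higher and 2 lower, with Pdhx at -0.84 ± 0.16, Pdp1 at 0.41 ± 0.10 and the kinase Pdk3 at 0.60 ± 0.16. The shares over all genes were 16.1% lower and 16.7% higher at 60 against 0 weeks, and 17.6% and 20.7% at 60 against 12 weeks.

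Of 10 genes of the pentose phosphate pathway, which draws glucose 6-phosphate off for NADPH and ribose, 3 were higher and 3 lower at 12 against 0 weeks, against 19.1% and 22.7% of all genes. H6pd (1.42 ± 0.09), which acts in the endoplasmic reticulum, was higher, and Rpe (-0.93 ± 0.15) and the transketolase Tkt (-0.82 ± 0.15) were lower. At 60 against 0 weeks 1 was higher, H6pd (0.63 ± 0.09), and 3 were lower, including Tkt (-0.66 ± 0.15) and Prps1 (-0.45 ± 0.12). At 60 against 12 weeks 1 was higher, Rpe (0.93 ± 0.15), and 4 lower, including H6pd (-0.80 ± 0.09) and Pgd (-0.68 ± 0.10). Among all genes the shares were 16.7% higher and 16.1% lower at 60 against 0 weeks, and 20.7% and 17.6% at 60 against 12 weeks.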

How the data were processed

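Per the file headers, the authors quantified the scans in Agilent Feature Extraction 10.7.3.1 (protocol GE1_107_Sep09); the design names build mm9:NCBI37:Jul2007. Deposited scanner files give an intensity per spot, already background-subtracted by that software. The deposited value table gives a signal for 42530 probes, which equals the intensity divided by 1 constant per array (0.993 to 0.999 of its 75th percentile); it was used as an alternative. Its column medians were 0.0668, 0.0719 and 0.0705 at week 0, 0.0619, 0.0681 and 0.0733 at week 12 and 0.0673, 0.0695 and 0.0582 at week 60 on a linear scale, without centring.

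Here, outlier spots were left out (117 to 163 of 59305 per array; saturated spots 0), repeated spots were averaged per probe, and from each log2 intensity that of the array's 75th percentile (control probes apart) was subtracted. Probes well above background on at least 2 of 3 arrays of a group were kept. RefSeq accessions named 27235 probes (28446 stayed unnamed) in the GRCm38.p6 tables. Each gene took its probe with the highest mean. Fits used limma 3.58.1 (lmFit, eBayes) in R 4.3.3 over all 9 arrays, two-sided, with Benjamini-Hochberg adjustment over 14034 genes and a threshold of 0.05. A group with no array above background gives a bound ("at least"), from the lowest signal called well above background on each array or the probe's own, whichever is higher. Alternatives changed the scaling, background correction, filter, probe choice, blocks and arrays; normexp (offset 50) used spot medians, since the files hold no spot means. The members and lists were chosen with earlier results of these data known. All members are named, and of other lists up to 3 called genes per comparison in order of adjusted p; some genes that this rule takes are not reported here. Precision is limited by 3 arrays per group.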

Additional observations from a re-analysis of the deposited data

How the results depend on the processing

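Of 93 member results (31 genes in 3 comparisons), 46 were called, and 23 of these kept their call in each of the 21 alternatives run. None of the called values changed sign (0 of 46), and 61 of 1950 values changed sign where neither fit made a call. Fitting only the 2 groups compared gave 1 lower glycolytic enzyme at 60 against 0 weeks. The slide as a block left 1 lower hypoxia gene at 60 against 0 weeks, which is the same as leaving out replicate 3 of 60 weeks, and values relative to the chromosome median left 1 as well. Slide row fitted as a block left, at 60 against 0 weeks, 1 higher glycolytic enzyme, 2 higher and 1 lower hypoxia genes and 1392 called genes in all (4600 without it), and, at 60 against 12 weeks, 6 higher glycolytic enzymes and 3468 called genes in all (5378 without it). Among single genes, slide row as a block ended 13 member calls, values relative to the chromosome median 9, quantile normalisation 8 and leaving out replicate 1 of 12 weeks 12. The cause was not tested.

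Leaving out each array in turn gave, at 12 against 0 weeks, 2 to 2 higher and 6 to 10 lower glycolytic enzymes, 4 to 9 lower hypoxia genes and 4228 to 7405 called genes in all. At 60 against 0 weeks it gave 3 to 4 higher and 0 to 1 lower glycolytic enzymes, 2 to 4 higher and 1 to 4 lower hypoxia genes and 3195 to 6022 genes in all. At 60 against 12 weeks it gave 6 to 10 higher glycolytic enzymes, 4 to 7 higher and 0 to 1 lower hypoxia genes and 3624 to 7072 genes in all. The 4 lower hypoxia genes at 12 against 0 weeks came without replicate 2 or 3 of 0 weeks or replicate 1 of 12 weeks, and the 6 higher glycolytic enzymes at 60 against 12 weeks without replicate 1 of 12 weeks or replicate 2 of 60 weeks.

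The replicate numbers were not shown to pair the samples (same-number correlations of deviations from -0.08 to 0.20). With the replicate block, 5795, 4453 and 5246 genes were called at 12 against 0, 60 against 0 and 60 against 12 weeks; 2 member calls were lost (Ndrg1, adjusted p = 0.0724 and 0.0716) and 3 gained at 12 against 0 weeks (Gapdh, 0.0281; Pgam1, 0.0414; Slc2a1, 0.0479).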
